A study of Saccharomyces cerevisiae BY4741 with 22 samples.

Results

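The 3' end of 25S rRNA and the 3' external transcribed spacer behind it were followed in 4 libraries of 25S rRNA from the yeast Saccharomyces cerevisiae. The region was defined by position alone, as positions 6630 to 6858 of the 35S precursor, which make up 229 of its 6858 positions. It holds the last 18 nucleotides of mature 25S rRNA and all 211 nucleotides of the spacer. Mature 25S rRNA spans 3252 to 6647, and its last nucleotide is called position 0 here. Negative numbers lie inside 25S rRNA (truncated ends) and positive numbers in the spacer (extended ends). No genome coordinate or sequence is given, because the files name the precursor but no genome build. In 4 of 4 libraries the most frequent end was position 0, as the label of the region says.

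The 4 libraries belong to a series of 22, of which the other 18 were made from 18S rRNA. In the method used, 3'-RACE, a DNA linker is ligated to RNA 3' ends, and the stretch from an rRNA-specific primer to the linker is amplified and sequenced. The 25S RNA came from purified 60S subunits of strain BY4741 grown at 30 °C in glucose medium, was ligated to the Universal miRNA Cloning Linker, and its cDNA was purified on gels. In all 4 cultures the chromosomal PNO1 and DIM1 genes stood under a galactose promoter, which glucose turns off. Plasmid-borne copies of both genes replaced them. Both groups, the control included, carried the mutant Dim1-E85A from a Cyc1 promoter. They differed in Pno1, which a TEF promoter drove as the unmutated protein in 2 libraries (Pno1) and as the mutant Pno1-KKKF in 2. The labels call the first wild type and the second the Rio1 bypass condition. They also call the libraries biological replicates.

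Pno1 and Dim1 are assembly factors of the small ribosomal subunit and act close to the 3' end of 18S rRNA. The 3' end of 25S rRNA is made by a separate route in the large subunit. The double-strand-specific nuclease Rnt1 cuts a stem-loop in the 3' external spacer while the precursor is still being transcribed, at +14, +15 and +49, and the remaining spacer nucleotides are then trimmed to the mature end by exonuclease. The design text gives the 25S libraries as the control for whether an effect of Pno1-KKKF is limited to 18S rRNA.

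Between 2562767 and 2845589 ends were counted per library within 50 nt of position 0. An end is a lasting drop in read depth, that is, a fall that no position further 3' makes up again. The widest 95% Wilson interval of the shares of truncated, extended and all misplaced ends in a library reached 0.0224 percentage points to either side. Since PCR copies of a molecule were counted as separate reads, an interval, or a floor of 3 ends, covers no more than the error of counting. Reads began at -46, taken as the first position with at least 50% of the highest depth. Ends were found at 26 of the 229 positions, and 20 positions held at least 10 ends in at least 2 libraries, 12 of them in 25S rRNA and 8 in the spacer.

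The mature nucleotide dominated every library. Ends at position 0 made up 96.8% and 96.3% in Pno1 replicates 1 and 2 and 96.9% and 96.4% in Pno1-KKKF replicates 1 and 2. The Pno1 mean was 96.5% ± 0.306 (SD, n = 2), the Pno1-KKKF mean was 96.7% ± 0.341 (SD, n = 2), and the groups overlapped.

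Misplaced ends lay mainly within a nucleotide of the mature end. Molecules short by a single nucleotide, at -1, made up 2.19% and 2.52% of ends in Pno1 and 2.02% and 2.44% in Pno1-KKKF. This position alone held 89.0% to 90.0% of the truncated ends of each library. Molecules longer by a single nucleotide, at +1, made up 0.567% and 0.560% in Pno1 and 0.546% and 0.537% in Pno1-KKKF, or 63.7% to 71.6% of the extended ends. Both flanks thus dropped off steeply from these positions, as the plot of ends by position shows.

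**Figure D1:**
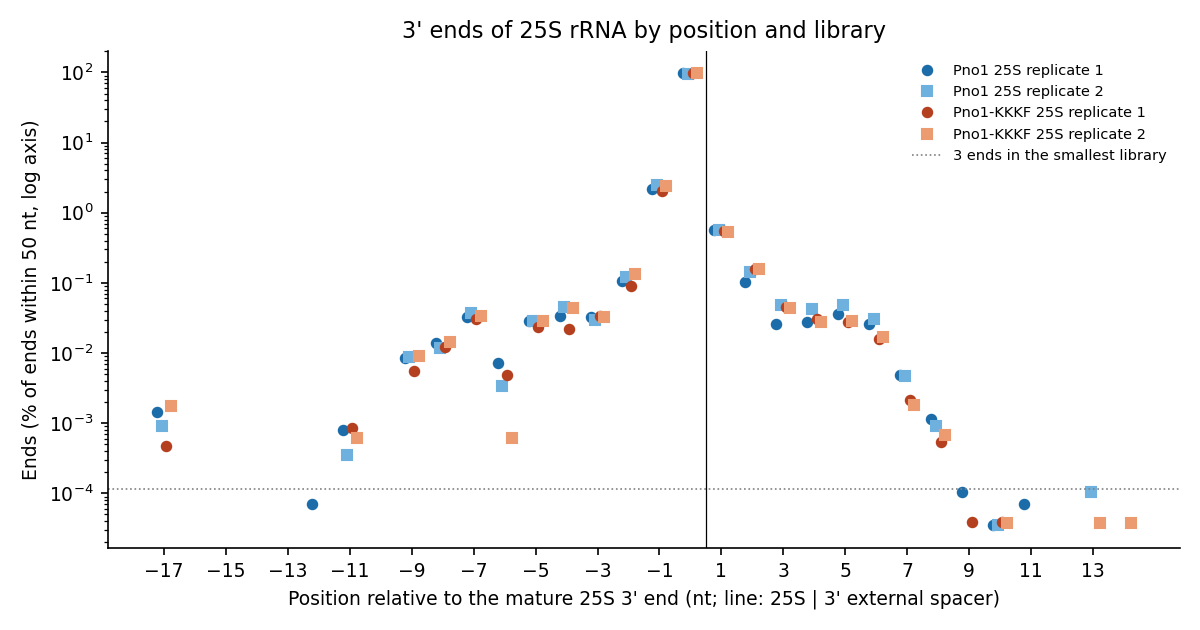
Ends of 25S rRNA at each position from -17 to +14, as a percentage of ends within 50 nt of position 0 on a log axis. Each marker is a library, positions with no end are not drawn, and the dotted line is the share that 3 ends give in the smallest library. Position 0 holds about 96 to 97% of ends in all 4 libraries, -1 comes next with 2.02% to 2.52%, and no end lies past +14.

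On the 25S side, ends at -2 made up 0.106% and 0.120% in Pno1 and 0.0907% and 0.134% in Pno1-KKKF. From -9 to -3 each position with ends held between 0.000612% and 0.0456% in a library, and the groups overlapped at each of these positions but -3. Ends at -4, the most frequent truncated end of 18S rRNA, made up 0.0338% and 0.0456% in Pno1 and 0.0220% and 0.0444% in Pno1-KKKF. Position -6 varied most between libraries, with 204, 97, 123 and 16 ends in the order Pno1 replicates 1 and 2 and Pno1-KKKF replicates 1 and 2. Ends at -3 numbered 924 and 839 in Pno1 and 866 and 851 in Pno1-KKKF, which as shares of the library were 0.0325%, 0.0295%, 0.0338% and 0.0325%.

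Further inside 25S rRNA only -11 and -17 held ends in all 4 libraries, with 10 to 23 ends at -11 and 12 to 46 at -17. Ends at -16 to -13 were 0 in all 4 libraries, but this is no measurement of none. Reads skipped these 4 nucleotides at 0.0122% to 0.0339%, and an end that falls in such a dip is counted further upstream, here at -17. The same holds for -10, where reads skipped the nucleotide at up to 0.00153%. Skips at -15 were 0.0144% and 0.0181% in Pno1 and 0.0130% and 0.0122% in Pno1-KKKF, and at -14 they were 0.0204% and 0.0271% against 0.0190% and 0.0191%. At -16 and -13 the groups overlapped. Skips were not tested between the strains, and no strain difference is read from them.

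In the spacer the ends thinned out within a few nucleotides. Ends at +2 made up 0.103% and 0.144% in Pno1 and 0.158% and 0.157% in Pno1-KKKF. Ends at +3 made up 0.0259% and 0.0492% in Pno1 and 0.0460% and 0.0436% in Pno1-KKKF, and those at +4 made up 0.0277% and 0.0426% against 0.0308% and 0.0277%. From +3 to +6 each position held 0.0259% to 0.0492% in a Pno1 library, and +7 and +8 then held less than +6 in all 4 libraries. Past +8 only 15 ends were counted over all libraries.

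Almost no 25S molecule ended at the sites cut by Rnt1. At +13 there were 3 ends in Pno1 replicate 2 and 1 in Pno1-KKKF replicate 2. Position +14 held 1 end, in Pno1-KKKF replicate 2, and +15 held 0 in all libraries. The floor of 3 ends is a share of 0.000105% to 0.000117% per library. No read reached the other 197 spacer nucleotides, +49 among them. How far the reads could reach is not given in the sources used here. In 18S libraries of the same protocol, the longest covered stretch from the start of the reads across the 18S end was 77 nt. Covered positions elsewhere were not examined for this. From the start of the 25S reads such a stretch would end at +30, so nothing is read from the absence of ends past that point.

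Whether Pno1-KKKF changes the accuracy of the 25S end was tested on 3 shares. Truncated ends made up 2.46% and 2.80% in Pno1 and 2.24% and 2.74% in Pno1-KKKF. Extended ends made up 0.792% and 0.880% in Pno1 and 0.827% and 0.813% in Pno1-KKKF. In both shares the groups overlapped. As odds against ends at position 0, truncated ends differed by -0.08 on the log2 scale (Pno1-KKKF minus Pno1, SE 0.18) and extended ends by -0.03 (SE 0.08). All misplaced ends together made up 3.46% ± 0.306 (SD, n = 2) in Pno1. In Pno1-KKKF they made up 3.31% ± 0.341 (SD, n = 2), and the log2 odds differed by -0.07 (SE 0.14).

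None of the 3 differences passed the two-sided exact permutation test, with p = 0.667 for truncated, 1 for extended and 0.667 for misplaced ends, all 1 after Benjamini-Hochberg adjustment. With 2 libraries against 2 this test cannot give a p below 0.333. Leaving out a library turned the sign of all 3 differences without Pno1 replicate 2 and of the truncated and misplaced differences without Pno1-KKKF replicate 1, within -0.23 to 0.06.

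By distance from the end, 5 of 8 groups of positions held enough ends for a comparison. The 2 positions next to the end inside 25S rRNA, -2 and -1, differed by -0.08 (SE 0.18) and -10 to -3 by -0.13 (SE 0.16). Positions -18 to -11 differed by 0.05 (SE 0.60), on 102 ends in Pno1 and 96 in Pno1-KKKF. In the spacer, +1 to +2 differed by 0.02 (SE 0.04) and +3 to +10 by -0.27 (SE 0.27), which was -0.0082 without Pno1 replicate 2. The adjusted exact permutation p was 0.833 to 1 over the 5 groups.

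The share of molecules that extend at least to a given spacer nucleotide is given next as values, since no spacer position passed the test. Molecules that reached at least +5 made up 0.0686% and 0.0838% of ends in Pno1 and 0.0467% and 0.0480% in Pno1-KKKF. At least +6 was reached by 0.0323% and 0.0362% against 0.0187% and 0.0195%, and at least +7 by 0.00630% and 0.00573% against 0.00273% and 0.00264%. From +4 to +9 both Pno1-KKKF libraries lay below both Pno1 libraries, while from +1 to +3 and from +10 to +14 the groups overlapped. At +9 this rested on 6 and 4 reads in Pno1 against 2 and 3 in Pno1-KKKF. These shares are nested, so neighbouring positions count the same molecules. Over the 32 positions that any read reached, -17 to +14, both Pno1-KKKF libraries lay lower at 7 (21.9%) and higher at 2 (6.25%), -5 and -4. The seventh lower position was -17, where all 4 libraries lay at 99.9998% or above. The farthest end was at +11 and +13 in Pno1 and at +10 and +14 in Pno1-KKKF.

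**Figure D2:**
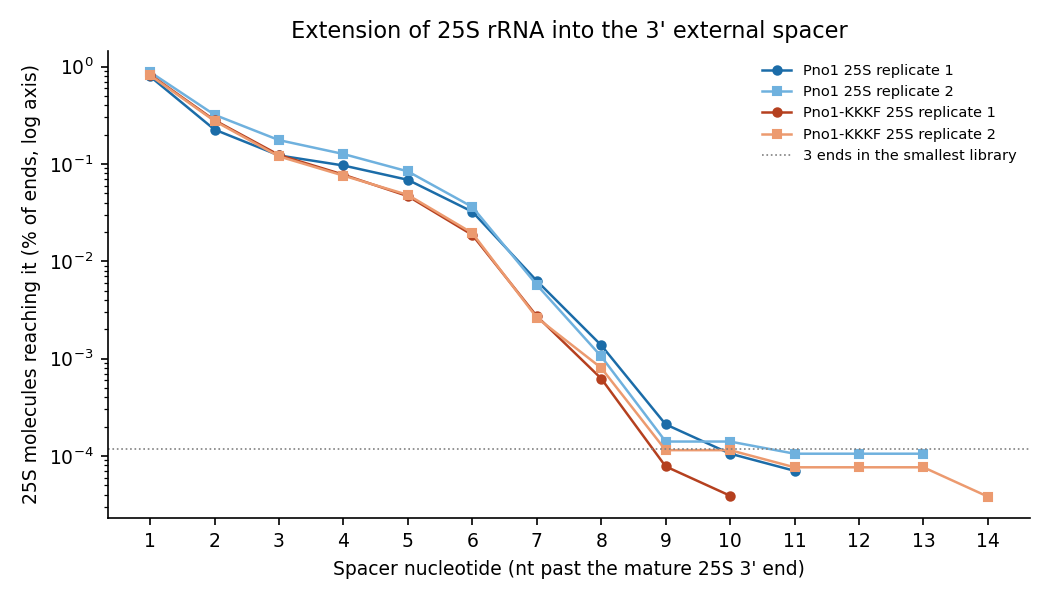
Share of 25S molecules that extend at least to each spacer nucleotide, as a percentage of ends within 50 nt of position 0 on a log axis, with a line per library. The 4 libraries lie close together at +1 (0.792% to 0.880%) and do not overlap between strains from +4 to +9. The ratio of the means, Pno1-KKKF over Pno1, is 0.688 at +4 and 0.446 at +7, and the groups overlap again from +10. The dotted line is the share that 3 ends give in the smallest library, and both Pno1-KKKF libraries lie below it at +9.

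Counted as ends rather than as molecules reaching a position, +7 held 140 and 133 ends in Pno1 and 54 and 48 in Pno1-KKKF. Ends at +6 numbered 739 and 866 against 408 and 441, and ends at +5 numbered 1033 and 1355 against 718 and 747. At each of the 3 the groups did not overlap. The mean level at +7 was 0.00480% ± 0.000178 (SD, n = 2) in Pno1. It was 0.00197% ± 0.000193 (SD, n = 2) with the mutant. At +8 there were 33 and 26 ends against 14 and 18.

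Relative to total ends, +7 was 2.43-fold lower in Pno1-KKKF (log2 difference -1.28, SE 0.26), +6 was 1.72-fold lower (-0.78, SE 0.19) and +5 was 1.48-fold lower (-0.57, SE 0.21). The adjusted p of the edgeR quasi-likelihood test was 0.163 for +7 and +6 and 0.345 for +5, with unadjusted p of 0.00836, 0.0163 and 0.0518. Position +8 had a log2 difference of -0.74 (SE 0.36) and an edgeR adjusted p of 0.548. With DESeq2 and one mean dispersion, a setting chosen after the data were seen, +6 and +7 passed (DESeq2 adjusted p = 0.0021 and 4.76e-05). With its usual dispersion trend DESeq2 called neither. Both Pno1 libraries also held more ends in total, 2842573 and 2845589 against 2562767 and 2616442, and the part of depth in the difference was not tested.

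Over all 20 tested positions edgeR called 0 (0% of positions tested), with 2 positions at an unadjusted p under 0.05. Beside the 2 calls with a mean dispersion, DESeq2 with its usual dispersion trend called 0. When scaled to total ends, it gave an unadjusted p under 0.05 at 3 positions, +5 to +7. By the tool's own size factors these were 2, +6 and +2, the latter higher in Pno1-KKKF (DESeq2 adjusted p = 0.0615). Position +7 then had a log2 difference of -1.11 and an unadjusted DESeq2 p of 0.152. Of the 20, 5 were lower in both Pno1-KKKF libraries than in either Pno1 library (25%) and 2 were higher (10%). With 2 libraries against 2, groups that do not overlap can have no exact permutation p below 0.333. The 5 lower were +1 and +5 to +8, and the 2 higher were -3 and +2. At -3 this was a near tie, 0.03253% in Pno1-KKKF replicate 2 against 0.03251% in Pno1 replicate 1. At +1 the log2 difference was -0.06 (SE 0.05; 0.04 with TMM scaling), at +2 it was 0.35 (SE 0.20) and at -3 it was 0.10 (SE 0.16).

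The 11 tested positions upstream of position 0 had log2 differences from -0.97 to 0.34, with a median of -0.08, and 8 of them were below 0. The 8 spacer positions had a median of -0.42, with 6 below 0, beside a median of -0.09 over all 20. Position -1 differed by -0.08 (SE 0.12), -2 by -0.01 (SE 0.23) and -4 by -0.26 (SE 0.42). The lowest upstream value, at -6, had an SE of 1.04 and moved between -3.10 without Pno1-KKKF replicate 1 and -0.14 without replicate 2. The highest, at -11, had an SE of 0.56. Positions -17, -9, -8, -7 and -5 had -0.08, -0.27, 0.03, -0.10 and -0.11, and +3 and +4 had 0.26 and -0.26. Position 0 itself differed by 0.0023.

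**Figure D3:**
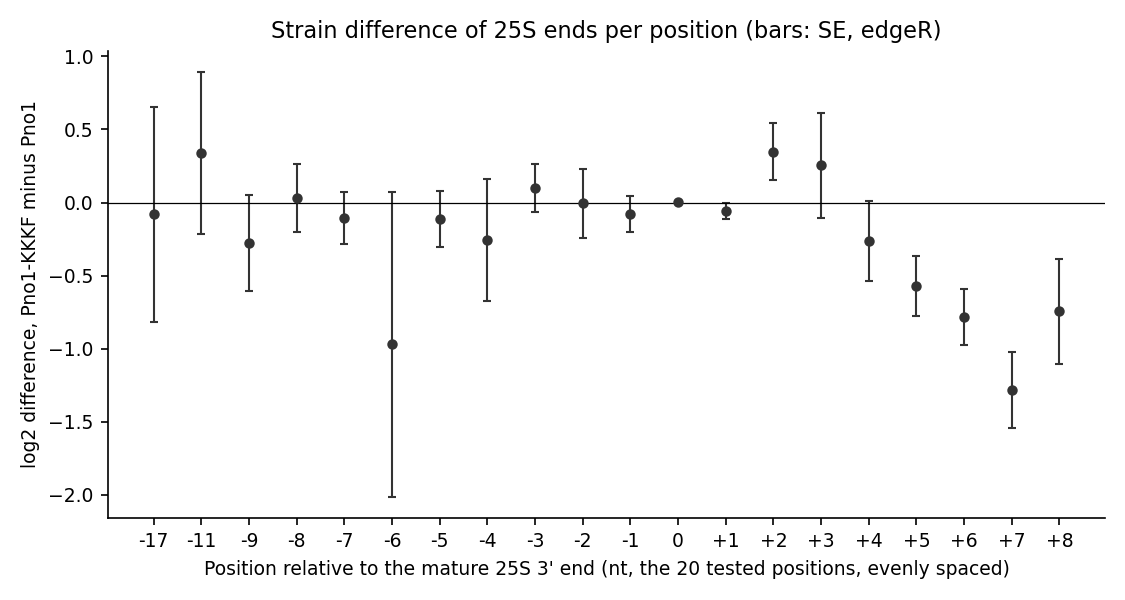
Log2 difference in ends per position between Pno1-KKKF and Pno1 at the 20 tested positions, evenly spaced on the axis. Bars are 1 SE, derived from the F statistic of the edgeR test. Upstream positions scatter around 0 with bars that cross it, while +5 to +8 lie between -0.57 and -1.28. No position passed at an adjusted p of 0.05.

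The 25S end was set beside the 18S end in the 6 libraries of 18S rRNA made from the same strains, at the same temperature and with the same linker (3 per strain, 2615352 to 2847479 ends). Coverage past the 18S end ran without a gap to +33 to +36 in these libraries. In replicate 7 of 18S rRNA from both strains, made at 25 °C with another linker, it ran to +213. The shares below thus leave out longer extensions of 18S rRNA. Within this reach, extended ends were more frequent on 25S rRNA. They ranged from 0.792% to 0.880% in the 4 libraries of 25S and from 0.162% to 0.419% in the 6 of 18S, so every 25S library lay above every 18S library. Within strain the odds were 3.58-fold higher on 25S (log2 difference 1.84, SE 0.24, two-sided exact permutation p = 0.01, the smallest that 100 arrangements allow, adjusted p = 0.03 over 3 shares). Truncated ends had nearly equal odds (log2 difference 0.03, SE 0.17, exact permutation p = 0.9). They ranged from 2.24% to 2.80% on 25S and from 1.67% to 3.20% on 18S.

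**Figure D4:**
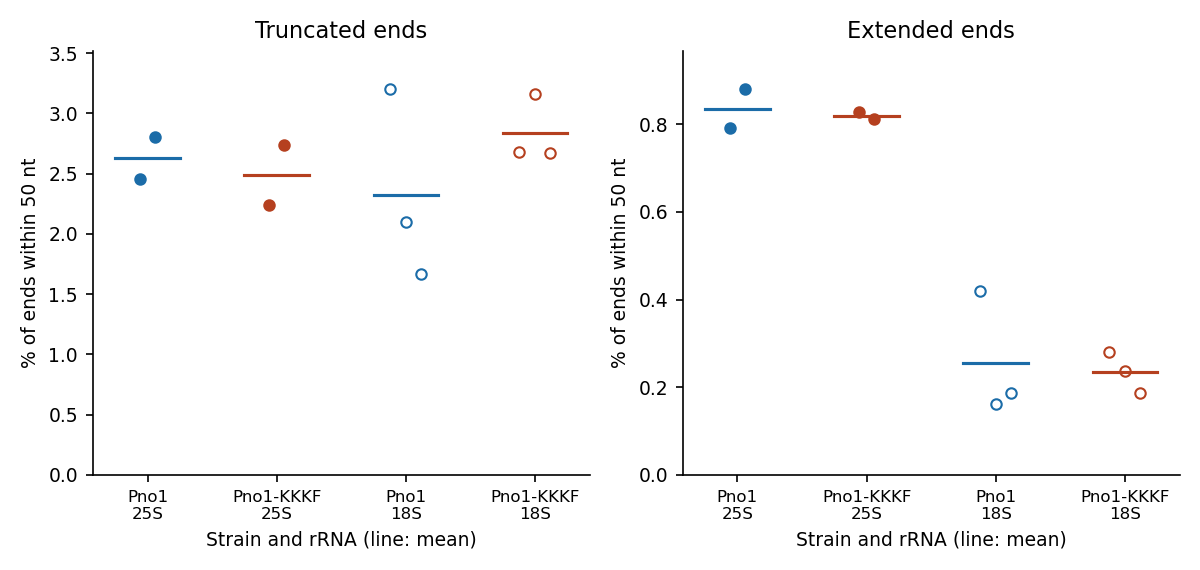
Truncated (left) and extended (right) ends as percentages of ends within 50 nt of the mature end, for 25S rRNA (filled) and 18S rRNA (open) of both strains at 30 °C, with a point per library and a line at the group mean. Truncated shares of the 2 rRNAs overlap, while the extended shares of 25S, 0.792% and above, all lie above those of 18S, 0.419% and below.

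The 2 rRNAs also differed in where misplaced ends fell, which is given as values only. Position -1 held 89.0% to 90.0% of truncated 25S ends and at most 17.7% of truncated 18S ends. Position -4 held 0.983% to 1.63% on 25S and at least 45.0% on 18S. Of the extended ends, +1 held 63.7% to 71.6% on 25S and 13.6% to 18.9% on 18S, and those at +8 or beyond were 0.0755% to 0.173% on 25S and 22.7% to 46.1% on 18S. The 25S ends were thus packed more closely around the mature end, while the odds of all misplaced ends differed by 0.30 on the log2 scale (25S minus 18S, SE 0.17, exact permutation p = 0.18, adjusted p = 0.27). The 2 rRNAs differ in subunit, primer and sequence, whose parts in these values cannot be told apart.

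The strain effect itself was compared between the rRNAs. For truncated ends it was 0.35 on 18S and -0.08 on 25S in log2 odds, a difference of 0.43 (SE 0.34, two-sided exact permutation p = 0.25, adjusted p = 0.4). For extended ends it was -0.0015 on 18S and -0.03 on 25S, a difference of 0.03 (SE 0.47, exact permutation p = 0.983). Neither difference passed.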

How the data were processed

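The deposited values are whole-number counts of reads at each position of the 35S precursor (read depth), per the file headers, which also name the sample of each column. Tools listed in the submitters' processing notes, with no role given, are bedtools 2.17.0, Bowtie2 2.2.9, cutadapt 3.5, FastQC 0.11.4, SAMtools 1.1.0, Trim Galore 0.6.1 and UMI-tools 1.1.2. Their settings were not given in the sources used here. The region, its positions and the groups of positions were chosen with earlier results of these data known.

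The end of 25S rRNA in the precursor was taken from the RefSeq gene table of assembly R64. Depth at each position was replaced by the highest depth at or 3' of it, and the drop from each position to the next was counted as ends. Skipped nucleotides are thereby not counted as ends. Shares used ends within 50 nt of position 0. They were compared as log2 odds with 0.5 added to both counts, by exchanging strain labels (6 arrangements for 25S) in an exact permutation test. For 25S against 18S, labels were exchanged within strain (100 arrangements), and for the difference of strain effects within rRNA (120 arrangements).

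The quasi-likelihood test of edgeR 4.0.16 was run on the ends of each position in R 4.3.3, with total ends as library size, no further scaling, at least 10 ends in at least 2 libraries and Benjamini-Hochberg adjustment at 0.05. The SE of a position was derived from this test, as the absolute log2 difference divided by the square root of its F statistic. An alternative used DESeq2 1.42.0. All else was computed with scipy 1.17.1, numpy 2.4.6 and Python 3.11.15. Named were position 0, -3 to +5, -10, +10, the Rnt1 sites, all tested positions, for each group the 5 other positions with most ends, and the 3 with the smallest p. Position +10 held 1 end in each of the 4 libraries. The counting of ends and the edgeR test were also run on simulated data with known answers. All simulated positions shared the same dispersion, so these runs do not show the power of the edgeR test on the real ends. No 2 libraries of 25S held equal counts within sampling noise, so none was taken for a library deposited more than once. That they are separate cultures rests on the labels. Alternatives tried were other definitions of an end, pseudocounts, windows, filters, scalings, a replicate block and leaving out each library.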

Additional observations from a re-analysis of the deposited data

Results flagged for a closer look

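Reads of the 25S 3' end turned up in 18S libraries. They were found in 9 of the 18 libraries of 18S rRNA, 7 with the universal linker and 2 with the linker that holds a molecular identifier (UMI), and 23 reads were counted in all. In 3 libraries their number was above the limit of 3 reads, with 4 in Pno1 18S replicate 6, 5 in Pno1-KKKF 18S replicate 1 and 4 in Pno1-KKKF 18S replicate 3. All 23 reads ended at position 0. They began at -46 in the universal-linker libraries, where the reads of the 25S libraries also begin, and at -101 in the UMI libraries. In no library did they exceed 0.000182% of the 18S ends.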

How the results depend on the processing

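The count of positions called was 0 under all settings of edgeR and DESeq2 but one, DESeq2 with a mean dispersion, which called 2. The groups share replicate numbers, which are not stated to pair the libraries. With the number as a replicate block edgeR called 0 of 20 positions (4 at an unadjusted p under 0.05), and +7 had -1.28 with an edgeR adjusted p of 0.19. Deviations of same-numbered libraries correlated at 0.33 over 20 positions.

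Without a library, misplaced ends differed by -0.18 to 0.040, truncated by -0.23 to 0.063 and extended by -0.11 to 0.051. The groups -18 to -11, -10 to -3, -2 to -1 and +1 to +2 ranged from -0.38 to 0.48, -0.29 to 0.029, -0.23 to 0.065 and -0.017 to 0.061, +3 to +10 ranged from -0.54 to -0.0082, and -18 to -11 was -0.020 with negative drops set to 0. Truncated ends of 25S against 18S ranged from -0.082 to 0.16 and were -0.17 with negative drops set to 0, and the difference of the extended strain effects ranged from -0.24 to 0.46. Extended ends of 25S against 18S stayed between 1.71 and 2.06 but missed the threshold, with an adjusted exact permutation p of 0.05 to 0.1. Fewer arrangements remain without a library, which raises the smallest p that the test can give. With the other shares far from passing, the extended share could then not pass, so nothing is read from this miss.

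Per position, values without a library ranged from -1.32 to 0.58 at -17, -0.14 to 1.05 at -11, -0.67 to 0.034 at -9, -3.10 to -0.14 at -6, -0.092 to 0.16 at -8, -0.27 to 0.027 at -5, -0.85 to 0.16 at -4, -0.32 to 0.25 at -2, -0.22 to 0.051 at -1, -0.0013 to 0.0059 at 0, -0.13 to 0.79 at +3 and -0.54 to 0.081 at +4. Positions -7, +1 and +5 to +8 stayed below 0, with -1.39 to -1.19 at +7, and +2 (0.12 to 0.61) and -3 above it. TMM and DESeq2's default size factors moved position 0 to 0.10 and 0.17 and the median of all positions from -0.09 to -0.02 and 0.05. TMM gave 0.072 at -2, 0.0096 at -1 and 0.036 at +1, and the default size factors 0.024 at -17, 0.061 at -7, 0.043 at -5, 0.15 at -2, 0.081 at -1 and 0.11 at +1, all below the value of position 0.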
